A study of Drosophila melanogaster with 3 samples.

Results

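The peaks described here are the places outside genes, and away from gene starts, at which CG16863 tagged with eGFP was reproducibly enriched on the autosomes of Drosophila melanogaster embryos. A peak of the deposited reproducible set was taken when its summit lay on an autosome, over 500 bp from every annotated transcription start site (TSS) and inside no annotated gene, transposable elements left out. This gave 452 peaks of the 3953 in the set, and of the 3203 on autosomes, a share of 14.1% (95% Wilson interval 12.9 to 15.4, for counting error only). They are called the intergenic distal peaks below.

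All libraries came from 1 group. These were whole embryos aged 0 to 16 h, males and females pooled, of a transgenic line with GFP fused to the C-terminal end of CG16863. Chromatin was sonicated to fragments of 200 to 800 bp and precipitated with an antibody against GFP. There were 3 biological replicates, numbered as in the labels, and no second group. A control library was not used here, so binding of the tagged protein and enrichment from other sources cannot be told apart. A whole embryo mixes all tissues and many stages, so a tall peak in few cells and a low peak in many cells also cannot be told apart.

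Intergenic DNA away from gene starts holds many of the enhancers that switch developmental genes on in particular cells, together with insulators, silencers and Polycomb response elements. Such elements are short stretches bound by several factors at once, and they can act on a gene that is not their nearest neighbour. In the compact fly genome, genes for developmental regulators often stand in long intergenic intervals, whereas housekeeping genes tend to stand close together and to carry their bound sites at the promoter. The genes named below are neighbours in the annotation, and no peak was linked to a target.

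The sequences under some of the highest members are shown first because base composition at the summit is the feature that several results below turn on. Each line gives the rank of a member by its mean rank of signal over the replicates, the protein-coding genes beside it and the bases up to 50 bp on either side of its summit. Letters are the plus strand of the dm6 build, read from the RefSeq genome, and capitals mark runs of at least 6 A or T.
Rank 2, between mtSSB and tara, chr3R:16222429-16222529: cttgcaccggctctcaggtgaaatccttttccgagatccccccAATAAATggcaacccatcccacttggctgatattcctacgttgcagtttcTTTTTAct
Rank 4, between COX7AL2 and CG31668, chr2L:2202348-2202448: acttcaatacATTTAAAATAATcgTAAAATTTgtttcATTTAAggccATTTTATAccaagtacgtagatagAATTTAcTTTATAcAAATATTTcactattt
Rank 5, between CG43131 and RabGGTa, chr3R:5113223-5113323: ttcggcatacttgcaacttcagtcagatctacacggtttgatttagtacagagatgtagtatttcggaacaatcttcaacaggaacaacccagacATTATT
Rank 6, between C15 and sp3, chr3R:21520328-21520428: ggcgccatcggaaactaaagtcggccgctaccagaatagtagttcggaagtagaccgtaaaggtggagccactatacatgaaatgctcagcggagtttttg
Rank 7, between RFeSP and chinmo, chr2L:1638738-1638838: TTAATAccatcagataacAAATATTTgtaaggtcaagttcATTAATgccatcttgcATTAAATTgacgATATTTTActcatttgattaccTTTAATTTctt
Rank 8, between RasGAP1 and CG10809, chr3L:9855956-9856056: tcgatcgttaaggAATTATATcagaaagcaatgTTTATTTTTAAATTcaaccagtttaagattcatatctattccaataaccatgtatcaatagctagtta
Rank 9, beside tara, chr3R:16224425-16224525: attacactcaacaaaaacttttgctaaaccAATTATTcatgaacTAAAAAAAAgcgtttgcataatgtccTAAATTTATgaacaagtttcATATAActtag
Rank 10, between slp1 and slp2, chr2L:3832466-3832566: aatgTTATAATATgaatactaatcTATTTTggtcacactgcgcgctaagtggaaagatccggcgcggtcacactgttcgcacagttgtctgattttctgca
Rank 12, between CG44362 and CG7560, chr3L:11418432-11418532: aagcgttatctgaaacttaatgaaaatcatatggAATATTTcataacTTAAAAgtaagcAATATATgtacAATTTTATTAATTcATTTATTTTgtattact
These windows did not look alike. The window between COX7AL2 and CG31668 held 54 bases in such runs and had a GC content of 21.8%, and that between CG44362 and CG7560 had 19.8%. The window between C15 and sp3 held no such run at 49.5% GC, and that upstream of tara had 47.5%. Of the 20 highest-ranked members, 14 had a GC content below 40%. The window between slp1 and slp2 held the letters GGTCACACT at 2 places on the plus strand as printed. These letters are the motif 1 element bound by M1BP at many housekeeping promoters, and no other intergenic distal peak held them on either strand. They were in 1.32% of reproducible promoter peaks, 0.0417% of all windows of that length tiling the intergenic distal sequence and 0.221% of the intergenic distal peaks.

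The strength of each member was described by the signal that the authors' peak caller gave it in each replicate. For each replicate the tallest relaxed peak whose summit came within 100 bp was taken, and its signal was divided by that replicate's median over the reproducible set, so that 1 is a typical reproducible peak. The reproducible set itself consists of the pooled peaks above a single pooled signal, so that signal chose the members, and the levels of single members below are a description. Of the 23571 pooled relaxed peaks, 16.8% were in the set. The share was 16.2% on the autosomes and 13.8% of the 3275 autosomal intergenic distal ones.

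The highest member stood in the 36783 bp interval between the convergent genes Su(z)2, a Polycomb group gene, and CG13323. It spans 13035137 to 13035521 on chromosome arm 2R, 11912 bp from the nearest TSS, and its relative signal was 10.501, 10.003 and 10.942 in replicates 1, 2 and 3. No other member came as high in any replicate. Psc, the neighbouring Polycomb group gene and the source of a core subunit of Polycomb repressive complex 1, also flanked members. The 3 members between CG13321 and Psc lay within 1299 bp of each other, and 2 of them are summits 207 bp apart in the same peak range. Their highest summit had a relative signal of 4.06, 3.92 and 3.16.

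The second member lay at 16222321 to 16222686 on 3R, 916 bp upstream of lncRNA:CR45643 and 3172 bp from tara, which belongs to the trithorax group. It had a relative signal of 8.32, 7.76 and 9.57. A further member at 16224346 to 16224632, between that lncRNA and tara, reached 3.73, 4.41 and 4.17. The ranges of these summits did not overlap. The third member lay in the 1340 bp between the convergent genes blw, which encodes a subunit of ATP synthase, and CycB, the gene of cyclin B, with 6.79, 6.68 and 8.09. It is at 22802780 to 22803148 on 2R, 762 bp from one gene and 579 bp from the other.

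The fourth member, at 2202217 to 2202575 on 2L, had 6.36, 6.11 and 5.55. It was 1 of 3 members in the 5808 bp between COX7AL2 and CG31668, and the others averaged 1.90 ± 0.13 and 1.47 ± 0.084 (SD, n = 3). The fifth, at 5113124 to 5113454 on 3R, reached 5.28, 5.27 and 4.91 in the 18908 bp between CG43131 and RabGGTa, which encodes a subunit of the enzyme that attaches lipid to Rab proteins. Beside the homeobox gene C15, a member 550 bp upstream of sp3 had 4.27, 4.09 and 5.17. A member 721 bp upstream of RasGAP1, a gene for an activator of Ras GTP hydrolysis, had 4.05, 4.47 and 3.58. Between the forkhead genes slp1 and slp2, both of the segmentation cascade, the member 4324 bp upstream of slp2 had 3.90, 3.89 and 3.70. The SD over the replicates was 0.11 for the last of these.

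**Figure D1:**
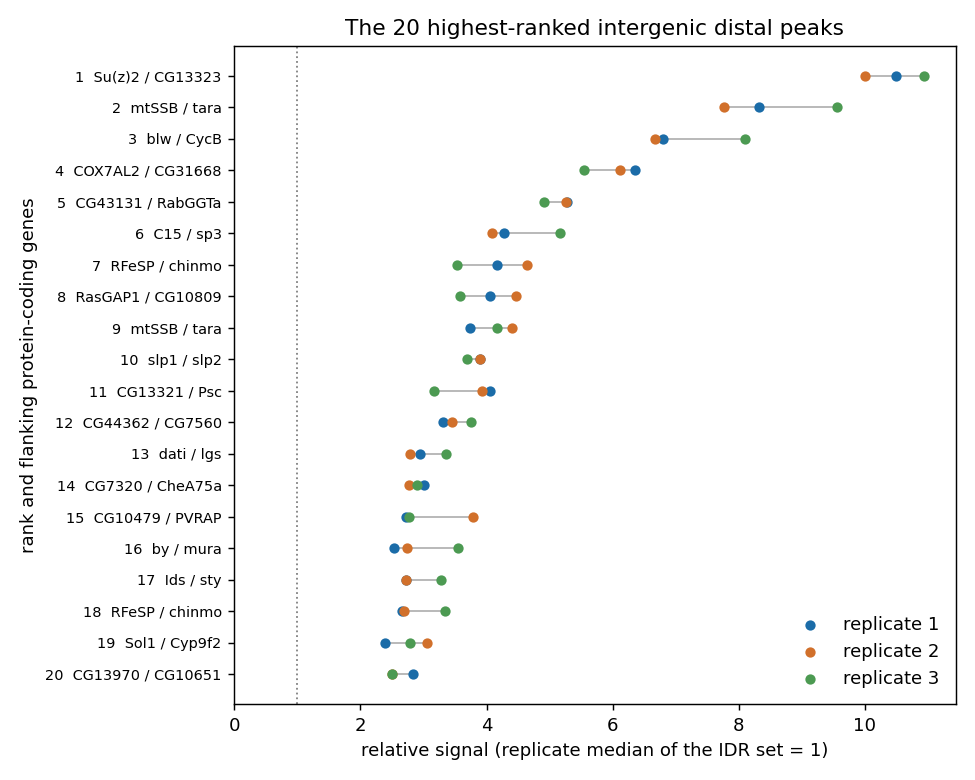
Relative signal of the 20 highest-ranked intergenic distal peaks, 1 point per replicate, with the replicate median of the reproducible set at 1 (dotted line) and grey lines spanning the replicates. Labels give the rank and the protein-coding genes on either side. The first member lies between 10.003 and 10.942 and the twentieth between 2.49 and 2.83.

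The 20 highest-ranked members were spread over 2L with 5, 2R with 3, 3L with 5, 3R with 6 and chromosome 4 with 1. That on chromosome 4, between dati and lgs, the latter encoding a coactivator of Wnt signalling, had 2.95, 2.79 and 3.35. Of the 20, 6 had a TSS within 1000 bp and 5 had none within 5000 bp. A lncRNA gene stood on at least 1 side of 9 of them. Of all members, 51.3% had an ncRNA gene, the annotated class that holds lncRNA genes, on at least 1 side. Values this high were rare among the members. Only 44 of the 452 averaged at least 2 over the replicates and 9 averaged at least 4, whereas 271 averaged below 1.

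Classes of peaks were compared by place, which the signal threshold did not use, but all of them are cut off at the same pooled signal made from these replicates. As a group the intergenic distal peaks had a median relative signal of 0.929, 0.941 and 0.920 in replicates 1, 2 and 3. The 1661 autosomal promoter peaks of the set, with a summit within 500 bp of a TSS, had 1.02, 1.01 and 1.03. The intergenic distal median was lower in 3 of 3 replicates, with a mean difference of -0.0902 ± 0.0213 (SD, n = 3). The exact two-sided sign-flip permutation test gave p = 0.25, the smallest that 3 replicates allow. Where only summits with a relaxed peak in all 3 replicates were used the difference was -0.112, and it was -0.0452 where the limit of 500 bp was set to 200 bp.

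Against the 1011 autosomal distal intron peaks no steady difference was seen. Their medians were 0.945, 0.976 and 0.901, and the intergenic distal median was lower in 2 of 3 replicates, with a mean difference of -0.0109 ± 0.0273 (SD, n = 3, exact sign-flip permutation p = 0.75). With the limit of 200 bp the mean difference was 0.0267, above 0. The 60 intergenic distal peaks of the X chromosome had lower medians of 0.838, 0.840 and 0.817. The autosomal ones were higher in 3 of 3 replicates by 0.0986 ± 0.00633 (SD, n = 3, exact sign-flip permutation p = 0.25, again the smallest possible). Males and females were pooled, and whether the number of X copies bears on this difference was not tested.

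**Figure D2:**
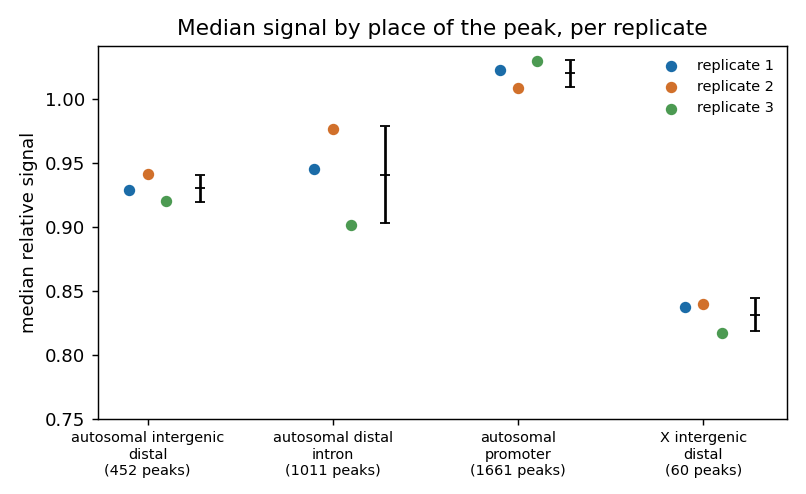
Median relative signal in each replicate (points) for 4 groups of reproducible peaks, with the mean and SD over the 3 replicates in black; the vertical axis starts at 0.75. The autosomal intergenic distal medians, 0.920 to 0.941, lie below all promoter medians, above all X medians and within the span of the intron medians.

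The share of members among the highest peaks of the set, ranked by mean rank over the replicates, is known only roughly. They were 2 of the top 25 (8%, Wilson interval 2.22 to 24.97), 6 of the top 100 (6%, 2.78 to 12.5), 41 of the top 500 (8.2%, 6.10 to 10.9) and 95 of the top 1000 (9.5%, 7.83 to 11.5), against 11.4% of the whole set. Only the interval of the top 500 lay wholly below that share. Their pooled signal ranged from 108.809 to 1869.92 with a median of 166.616, and 297 were below 200. The lowest members, with 108.809 and 108.998, differ little from the highest autosomal intergenic distal peaks outside the set, with 108.524 and 108.464. The limit of 500 bp is as sharp: the members nearest to a TSS are 502 bp from that of lncRNA:CR45277 and 503 bp from that of for, and the summits just within it are 498 bp from Acsf2 and 484 bp from Wdr81.

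How the members appear in the single replicates was largely fixed by their choice, since the set was thresholded for reproducibility on these same libraries. A relaxed peak lay within 100 bp of the summit in all 3 replicates for 407 members (90.0%), in 2 for 42 and in 1 for 3. By replicate, 96.2, 96.2 and 96.9% of members had one, and the replicate summit lay a median of 12, 8 and 17 bp away. Over the members with all 3 values the median coefficient of variation was 17.3%. Across the 452 members Spearman's rho between the signals of 2 replicates averaged 0.737 ± 0.00646 (SD, 3 pairs), as a description of members that share their libraries.

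Each replicate's own 452 strongest autosomal intergenic distal summits overlapped those of another replicate by 70.1, 69.5 and 68.6% in the 3 pairs (69.4 ± 0.777, SD), counting summits within 100 bp. Of these strongest summits 81.1 ± 2.18% (SD, n = 3) lay within 100 bp of a member. Where summits are close, the lists split them differently. Between lncRNA:CR45411 and lncRNA:CR43785, next to hng3, the summits at 724555 to 724760 and 724699 to 724858 on 3L overlap. One had 0, 3.03 and 2.86 and the other 3.35, 1.90 and 1.98, so the high value went to one summit in replicate 1 and to the other in replicates 2 and 3. In all, 32 members overlapped another member, and no pair of members shared a replicate peak.

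Some intergenic intervals held several members, a count that was not made for any other set of peaks. The 452 lay in 324 intervals between neighbouring genes, of which 239 held 1, 62 held 2 and 23 held 3 or more, the latter with 89 members together. The richest was the 32964 bp between tRNA:Ile-TAT-1-2 and CG13898 on 3L, with 9 members whose mean relative signal ran from 0.466 to 2.42. With only protein-coding genes as borders, the 12 members between hng3 and CG13898 spanned 40367 bp, and another 4 lay on the far side of hng3.

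The interval between RFeSP, which encodes the iron-sulphur subunit of respiratory complex III, and chinmo, which encodes a zinc finger factor of neuronal temporal identity, held 8 members over 33009 bp. The highest of them, at 1638615 to 1638970 on 2L, had 4.16, 4.64 and 3.54. The next, at 1632735 to 1632937, had 2.66, 2.69 and 3.34, and another at 1643380 to 1643576 had 2.14, 2.40 and 2.34. All of these stood above the typical reproducible peak in every replicate, while the lowest of the 8 averaged 0.712.

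The 75047 bp between NijA, a gene of the ninjurin family, and CG43245 held 6 members, all in its right-hand part. The member farthest from any TSS was among them, 36605 bp from that of CG43245, with 1.12, 1.22 and 1.25. The highest of the interval was 31882 bp from that TSS, with 3.03, 2.67 and 2.22. Between Doc2 and Doc1, T-box genes of the amnioserosa and heart, 5 members lay within 10768 bp. The highest of these had 1.90, 1.75 and 0.938, and 2 overlapping summits there had no relaxed peak in replicate 1.

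Beside noc, a zinc finger gene, 4 members lay within 4568 bp between lncRNA:CR45303 and lncRNA:CR45693. The highest of these had 2.52, 2.74 and 2.39. Between lncRNA:CR45737 and sty, which encodes an inhibitor of receptor tyrosine kinase signalling, 3 members had 2.73, 2.72 and 3.28 for the highest, 1.49, 2.14 and 1.89 for the next and 0.67, 0.67 and 0.63 for the lowest. Between Wnt4 and wg, genes of the Wnt family that point away from each other, 3 members averaged 1.04, 0.899 and 0.684. The 3 members between lncRNA:CR43823 and the pair-rule gene odd averaged 1.10, 0.887 and 0.772. In these last intervals none was far above the typical reproducible peak.

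**Figure D3:**
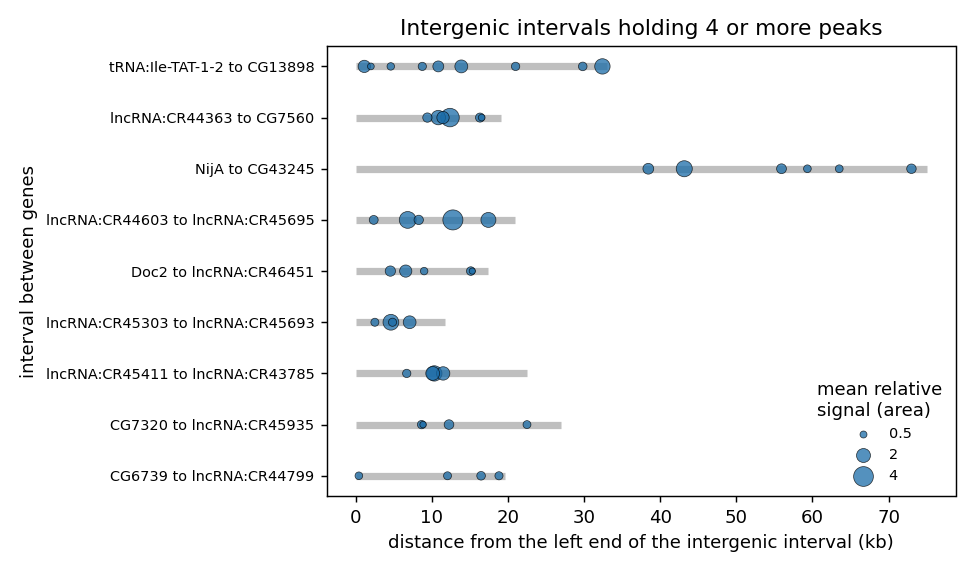
Positions of intergenic distal peaks in the 9 intergenic intervals that hold 4 or more, as distance in kb from the left end of the interval (grey bars); circle area is the mean relative signal over 3 replicates. Members are spread along the interval beside tRNA:Ile-TAT-1-2 and lie in the right-hand part of the 75047 bp next to NijA.

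The density of members differed between chromosome arms. Per Mb of autosomal intergenic distal sequence, 18.2 were found on 2L (122 members, 16.6% of the reproducible peaks of that arm), 17.3 on 3L (155, 19.2%), 13.6 on 3R (104, 11.1%) and 8.86 on 2R (66, 9.28%). The short chromosome 4 held 20.4 per Mb, from 5 members (38.5% of its reproducible peaks). The autosomes as a whole held 14.6 per Mb and the X 11.4, with the number of X copies not allowed for. Relaxed peaks were also fewer on 2R, where 585 pooled intergenic distal peaks lay in 7.45 Mb of such sequence, against 802 in 6.71 Mb on 2L. Of them 11.3% were in the reproducible set on 2R and 15.2% on 2L. The sequence counted was all of this class on each arm apart from undetermined bases, and how much of it allows a peak to be called was not tested. No test was made between arms.

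Within the intergenic space, members lay closer to gene starts than tiled windows did, with no test made. Their median distance to the nearest TSS was 2976.5 bp, with the middle 50% between 1283 and 6314.5 bp. For weaker peaks, the 2649 relaxed intergenic distal summits over 1000 bp from every reproducible summit, the median was 3403 bp. For the summit-sized windows that tile the autosomal intergenic distal sequence it was 5903 bp. These windows reached up to 567025 bp from a TSS, against 36605 bp for members. Whether a peak can be called in all of this sequence was not tested. The limit of 1000 bp removes weaker summits near reproducible promoter peaks but no members. How this bears on the distances of weaker peaks was not tested. A TSS lay within 2000 bp of 172 members (38.1%), of 32.3% of weaker peaks and of 20.3% of the windows. The interval around the summit was shorter too, with a median over members of 10666 bp, against 12463 bp over weaker peaks and 19166 bp over windows. An interval enters these medians once for every summit or window in it. Among the members, the median TSS distance was 3547, 2730, 2507 and 2159 bp over 4 bins of 113 members from the lowest to the highest pooled signal.

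Divergent intervals, in which both flanking genes point away from the peak, held 129 members (28.5%, Wilson interval 24.6 to 32.9), and convergent ones 91 (20.1%, 16.7 to 24.1). The weaker peaks had 24.3% and 24.1%, and the tiled windows 20.6% and 25.4%. The gene with the nearest TSS started on the side facing the peak, so that the peak was upstream of it, for 64.8% of members, 58.9% of weaker peaks and 59.1% of windows. The nearest TSS belonged to a protein-coding gene for 291 members (64.4%, against 65.9% of weaker peaks and 66.9% of windows). It belonged to an ncRNA gene for 143 (31.6%, against 31.4% and 26.2%). An ncRNA gene flanked 51.3% of members, 49.8% of weaker peaks and 40.4% of windows. Annotated transposable elements held 3 members (0.664%), 1.36% of weaker peaks and 10.9% of windows.

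To set such shares against replicate error, the 452 strongest autosomal intergenic distal summits of each replicate were compared with its other such summits over 1000 bp away. The share in divergent intervals was higher at the strong summits by 0.736, 1.36 and 4.91 percentage points in replicates 1, 2 and 3 (2.34 ± 2.25, SD, n = 3, exact sign-flip permutation p = 0.25). The mean was about the size of its SD, and without replicate 3 it was 1.05 points. Replicate lists feed the pooled list, so this is not independent of the pooled difference of 4.27 points. The replicates also share most of their strong summits, so the SD of such differences does not cover the choice of loci.

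The nearest other summit of the reproducible set was within 1000 bp for 62 members, within 5000 bp for 218 and within 10000 bp for 291, with a median of 5370 bp. It was itself intergenic for 253 members, in the promoter class for 127, in an intron for 65 and in an exon for 7. These counts include the 32 members that overlapped another member. They were not made for other sets, so whether members cluster more than other peaks was not tested. Most members (397) had the largest width in the list, 430 bp, and the narrowest was 117 bp.

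The DNA at the summits was rich in A and T. The windows of 50 bp on either side of the members' summits had a median GC content of 34.7%, against 41.6% at weaker peaks and 40.6% in the tiled windows. Of the members 71.9% were below 40% GC, and of the weaker peaks 42.8%. A and T runs of at least 6 letters covered a median of 19.5 bases of a member's window and 14 bases of a weaker one. The dip was local. The mean GC content of 50 bp bins was 35.7% at the summit, rose to 44.6% at 200 bp to its left and 44.0% at 200 bp to its right, and came down to 41.0% at 1000 bp.

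In the replicates' own lists the median GC content of strong summits was 35.6, 34.2 and 35.6%, and of the others 42.6, 40.6 and 45.5%. It was lower at strong summits in 3 of 3 replicates, with a mean difference of -7.76 ± 1.87 percentage points (SD, n = 3, exact sign-flip permutation p = 0.25, the smallest possible). Distal introns differed by -6.93 ± 0.990 points and promoters by -7.92 points in each replicate. The lower GC content was thus seen in every class measured, and the intergenic value lay within 1 SD of the intron value. Whether the classes differ in it was not tested.

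The difference depended on which weaker peaks were used. Over 4 equal bins from the lowest to the highest pooled signal, the weaker intergenic distal peaks had median GC contents of 44.6, 43.6, 42.6 and 36.6%. Within the members, binned in the same way, there was no further step, with 33.7, 34.7, 34.7 and 34.7%. Against the highest bin of weaker peaks alone, a comparison chosen after seeing the data, members differed by -1.98 points in the pooled list, and the replicate lists gave -5.12 ± 2.73 points (SD, n = 3).

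**Figure D4:**
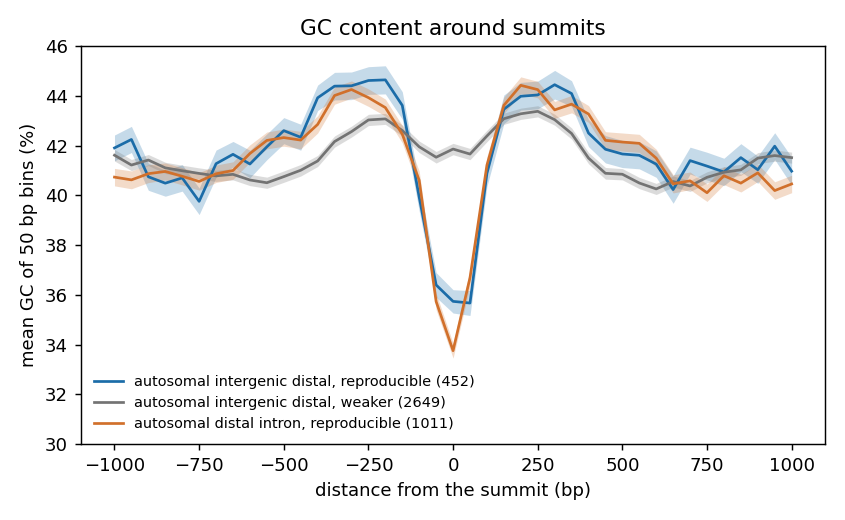
Mean GC content (%) of 50 bp bins against distance from the summit (bp) for the 452 intergenic distal peaks, 2649 weaker intergenic distal peaks and 1011 distal intron peaks; bands show the standard error over peaks, which covers the spread between peaks and not between replicates. The members dip to 35.7% at the summit between shoulders of about 44.0 to 44.6%, close to the intron peaks, while the weaker peaks stay between 40.3 and 43.4%.

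Short sequence motifs were counted on both strands of the same windows, with 39 motif entries in all. The entries TCAAGTG and CACTTGA are the same letters on opposite strands, so 1 motif was entered under 2 names. The share of strong summits minus that of weak ones had the same sign in 3 of 3 replicates for 24 entries (61.5%), 12 higher and 12 lower. The doubly entered motif was not among them. Against the highest bin of weaker peaks alone 11 motifs shared a sign. The largest rise was for TGATAA, a sequence bound by GATA factors. It was in 47 members (10.4%, Wilson interval 7.91 to 13.6), 6.80% of weaker peaks and 6.36% of tiled windows, and in 9.59% of intron and 9.21% of promoter peaks of the set. By replicate the difference was 2.57, 4.23 and 5.23 percentage points (4.01 ± 1.34, SD, n = 3, exact sign-flip permutation p = 0.25). The mean difference was 1.17 points within 25 bp of the summit and 6.55 points within 100 bp. In the windows of 50 bp on either side, those below 40% GC gave shares of 11.1% of members and 8.90% of weaker peaks. The other GATA site counted, AGATAA, was in 7.08% of members and 5.66% of weaker peaks. Below 40% GC it was in 7.38% and 8.72%, so its share there was not higher at the members.

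The run TTTTTTA, of the kind bound by hunchback, was in 9.96% of members and 7.63% of weaker peaks, but below 40% GC in 12.3% and 13.7%. Among windows of low GC its share was therefore not higher at the members. AGTTCA, a letter group found in paired ecdysone receptor elements, was in 6.64% and 4.53%. GCCAT, the core letters bound by the Polycomb group protein Pho, were in 17.3% of members and 20.6% of weaker peaks, and by replicate the difference was -3.60, -3.12 and -4.97 points. Below 40% GC the shares were 13.5% and 13.4%. With only the 204 strongest summits of each replicate on the strong side, the mean difference turned to 0.697 points. CCAAT was in 17.0% and 19.2%, with differences of 2.12, -3.43 and -3.29 points, which did not share a sign.

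The motifs of housekeeping promoters were also counted. TATCGATA, bound by DREF, was in 1 member (0.221%), 0.189% of weaker peaks, 0.203% of windows and 4.27% of promoter peaks of the set. CGATA, the core bound by BEAF-32, which is contained in TATCGATA, was in 9.96% of members, 10.3% of weaker peaks, 10.4% of windows and 23.1% of promoter peaks. For both motifs the share at the members was close to that of the tiled windows.

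Words of 6 letters were also ranked on chromosomes 2 and 4, counting both strands, and read on chromosome 3, which did not take part in the choice. Of the 10 chosen words, ATAGAA differed most there, in 13.1% of members and 6.33% of weaker peaks. Below 40% GC, over all autosomes and so including those used for the choice, the shares were 15.4% and 9.52%. It was in 8.90% of intron and 7.22% of promoter peaks of the set and in 6.67% of tiled windows. AAAAAT was in 32.0% and 25.5% on chromosome 3, and in 38.8% and 39.4% below 40% GC. The other 8 words differed by 0.110 to 3.23 points on chromosome 3.

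Genes next to the members were read from 18 lists of developmental and signalling genes, of which 406 of 430 symbols are in the annotation. The flanking genes were the nearest of any type on either side, lncRNA and tRNA genes included. At least 1 flanking gene was in a list for 96 members (21.2%, Wilson interval 17.7 to 25.2), for 18.6% of weaker peaks and for 10.2% of tiled windows. By replicate, strong summits exceeded weak ones by 2.66, 2.40 and 4.48 points (3.18 ± 1.13, SD, n = 3, exact sign-flip permutation p = 0.25). The mean was 1.02 points with the TSS limit at 200 bp and 1.47 points with only protein-coding genes. The share of a list differed in the same direction in 3 of 3 replicates for 12 of the 18 lists (66.7%), 9 higher and 3 lower. Some genes are in more than 1 list, so the lists are not separate from each other. Members in an interval share their neighbours, so several counts below are given with the number of intervals.

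The list of the EGFR and FGF pathways, which signal from receptor tyrosine kinases through Ras, had 10 members in 5 intervals. They were 2.21% of the members (Wilson interval 1.21 to 4.02), against 0.529% of weaker peaks and 0.813% of windows. By replicate the difference was 1.20, 1.56 and 1.51 points (1.42 ± 0.196, SD, n = 3, exact sign-flip permutation p = 0.25). The strong summits of 2 replicates overlapped by 69.4% on average, so this SD does not cover the small number of loci. The genes were sty with 3 members, aop, which encodes an ETS repressor, with 2, the FGF ligand genes pyr and ths with the same 2 between them, vn, the gene of an EGFR ligand, with 2, and stumps, an adaptor of the FGF receptor, with 1. The best beside aop averaged 1.52, that between pyr and ths 0.947, that beside vn 0.890 and that beside stumps 0.755. Beside sty the best reached 2.91 ± 0.32 (SD, n = 3).

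Dorsoventral patterning genes also had 10 members in 5 intervals (2.21%, against 0.793% of weaker peaks), 0.758, 1.45 and 0.924 points higher at strong summits by replicate. Of these, 6 were beside Doc2, so a single locus gave most of the count. Another 2 were those beside vn, which is in both lists, so they are counted under the EGFR and FGF list too. The list of chromatin and insulator genes had 5 members in 3 intervals: 3 beside Psc, 1 beside Su(z)2 and 1 beside psq, which encodes a BTB factor. They made up 1.11% of the members, and the list flanked 0.529% of weaker peaks. Of those beside Psc, 2 are summits of the same peak range, so that range is counted at both summits. With the TSS limit at 200 bp the replicate mean fell to 0.514 points for the dorsoventral list and to 0.854 points for the EGFR and FGF list.

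Both lists of segmentation genes had pooled shares near those of weaker peaks and positive differences in 3 of 3 replicate lists. Gap and terminal genes had 13 members (2.88%, against 3.02% of weaker peaks and 1.19% of windows), and strong summits differed from weak ones by 1.04, 0.118 and 0.371 points in the replicates. Of these members 4 were beside ems, 3 beside croc and 2 between slp1 and slp2. Pair-rule and segment polarity genes had 14 (3.10%, against 2.91% of weaker peaks and 1.24% of windows), with replicate differences of 1.39, 0.0568 and 0.673 points. Among them were mid with a member of 2.67, 2.11 and 2.20 and ptc, the gene of the Hedgehog receptor, with 1.62, 1.79 and 1.89. Neural factors had 18 members in 15 intervals (3.98%, against 3.85%), so nearly each had its own interval. A member 3918 bp upstream of zfh2 on chromosome 4 had 2.69, 2.41 and 1.54, and one beside SoxN, a Sox factor of the early nervous system, had 2.07, 2.03 and 1.89.

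Mesoderm and muscle factors had 10 members (2.21%, against 1.32%) and gut, fat and GATA factors 7 (1.55%, against 1.21%). Among them the member 1472 bp upstream of bin, a forkhead gene of the visceral mesoderm, had 1.30, 1.13 and 1.14. Adhesion and guidance genes had 10 members (2.21%, against 2.98%), the best of them upstream of robo2, which encodes a receptor for Slit, with 2.08, 1.84 and 2.02. Stress and cell death genes had 6 (1.33%, against 1.06%), with no shared sign over the replicates, 3 beside rpr, an activator of apoptosis, 2 upstream of the insulin-regulated factor foxo and 1 beside p53. The better foxo member had 1.61, 1.41 and 1.46, and the other had no relaxed peak in replicate 1, with 0, 1.24 and 1.44.

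Trachea and epidermis factors had 9 members (1.99%, Wilson interval 1.05 to 3.74), against 3.81% of weaker peaks and 1.57% of windows, and differed at strong summits by -0.348, -1.17 and -0.728 points. The mean was -0.749 ± 0.412 points (SD, n = 3). With protein-coding genes only it was similar, at -0.649 ± 0.853 points, but smaller than its SD. With the TSS limit at 200 bp it was -1.26 points, a larger difference. Hox genes and their cofactors had 1 member (0.221%, against 0.491% of weaker peaks and 0.304% of windows), 13229 bp from hth with 0.770, 1.17 and 0.834. The Hedgehog pathway had 1, that of ptc, against 0.491% of weaker peaks and 0.158% of windows. The Notch pathway had 3, beside Ser, Tom and fng (0.664%, against 0.340% of weaker peaks and 0.231% of windows). The Wnt pathway had 4 in 2 intervals, 3 of them between Wnt4 and wg and 1 beside fz (0.885%, against 0.604% and 0.365%). Both of these lists were higher at strong summits in 3 of 3 replicates, on average by 0.115 ± 0.0427 points for Notch and 0.131 ± 0.127 points for Wnt (SD, n = 3). No member had a gene of the Dpp and Activin or the JAK/STAT list as a nearest gene of any type. The count of 0 of 452 allows a share of up to 0.664% by the limit of 3 counts and 0.843% by the upper Wilson bound. The weaker peaks had 0.189% and 0.0378%. By the nearest protein-coding genes, the members were 20 for trachea and epidermis, 5 for Hox, 1 for Hedgehog and 4 for Notch. They were 6 for Wnt, 1 for Dpp and Activin and 0 for JAK/STAT. No share of weaker peaks is set beside these last counts.

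**Figure D5:**
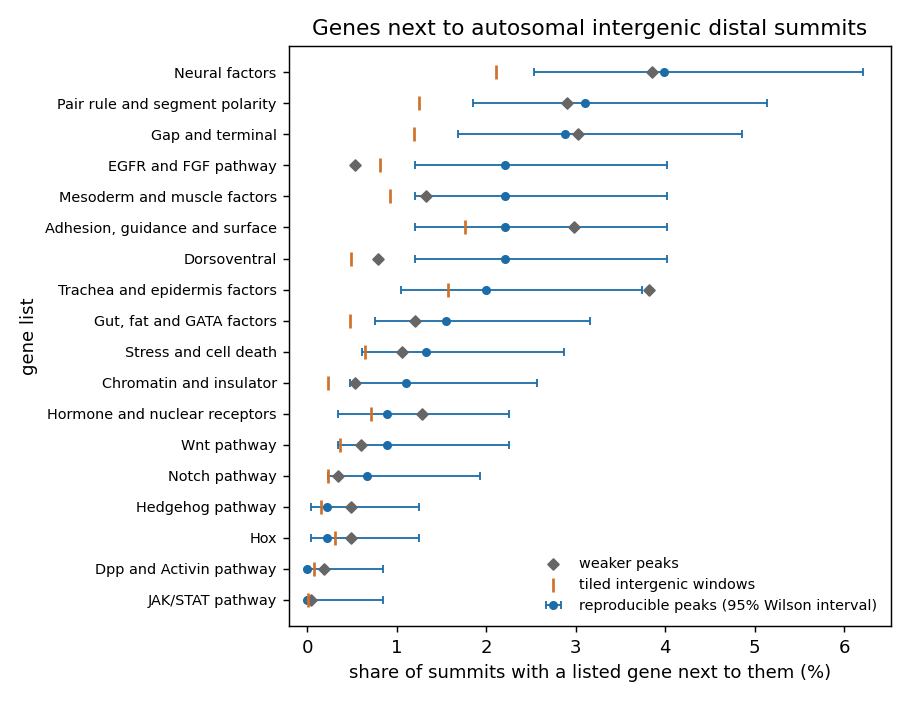
Share (%) of summits with a gene of each list as the nearest gene of any type on either side. Shares are for the 452 intergenic distal peaks (circles, 95% Wilson interval for counting error only), weaker intergenic distal peaks (diamonds) and tiled intergenic distal windows (bars). The EGFR and FGF list is at 2.21% against 0.529% at weaker peaks, and the trachea and epidermis list at 1.99% against 3.81%.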

How the data were processed

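ChIP-seq peak lists of 3 biological replicates were used in dm6 coordinates, written 1-based. Per the labels, the authors deposited a relaxed peak list for every replicate, one of the pooled replicates and a set thresholded by the irreproducible discovery rate, called the reproducible set here. Lists on dm3 were not used, and 0 columns of other samples were left out. No source used here names the aligner, the peak caller or the read depth, so no counting floor for reads can be given. The peak height is a signal value deposited by the authors for each peak, and the deposited −log10 q value was used for nothing but description. The reproducible set equals the 3953 pooled peaks with a signal of at least 108.583.

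Genes and TSSs came from Ensembl release 115 (BDGP6.54), with 18164 genes and transposable elements left out. The genome sequence was that of RefSeq, in the dm6 build. Windows reached 50 bp to either side of the summit. Signal was compared over the 3 replicates with exact two-sided sign-flip permutation tests, whose smallest p is 0.25. Shares carry 95% Wilson intervals, which cover counting error only. No test was made over peaks, which are not replicates. Weaker peaks are mostly weak calls, so such comparisons set strong against weak.

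The members named were the 20 with the best mean rank of signal, up to 2 for each gene list, those in intervals with 3 or more, the farthest from a TSS and those at the thresholds. Genes counted in a list were named after their values were seen, as were the motifs of housekeeping promoters and the intervals between protein-coding genes. The members and lists were chosen with earlier results of these data known. Python 3.11.15, numpy 2.4.6, pandas 2.3.3 and matplotlib 3.10.9 were used, and the functions were tested on simulated data. Alternatives were the TSS distance, the summit match, the window, the gene set, the choice of weaker peaks, a stricter signal minimum and leaving out each replicate.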

Additional observations from a re-analysis of the deposited data

How the results depend on the processing

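With the TSS limit at 200 bp, the signal difference was 0.0267 against distal intron peaks and -0.0452 against promoter peaks, and the difference in listed neighbour genes was 1.02 points. With the limit at 1000 bp the overlap of the strongest peaks was 70.7%. Keeping only reproducible peaks at or above the median pooled signal left 204 members, with a signal difference against promoters of -0.151. In the replicate lists this setting only cut the strong side to the 204 strongest summits, and lower ones joined the weak side. There the overlap was 76.5%, the listed neighbour difference 1.60 points and the difference for GCCAT 0.697 points in place of -3.90. With protein-coding genes only the listed neighbour difference was 1.47 points. Matching summits within 50 or 200 bp gave overlaps of 55.9% and 74.3%. With summits found in all 3 replicates the promoter difference was -0.112. Against the strongest 25% of the weaker peaks, chosen after seeing the data, the GC difference was -5.12 points, 11 motifs shared a sign in place of 24, and the listed neighbour difference was 1.65 points. The cause was not tested in any of these.

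Leaving out each replicate in turn gave an overlap of 68.6 to 70.1%, a signal difference of -0.102 to -0.0805 against promoters and -0.0256 to 0.00131 against introns, a GC difference of -8.42 to -6.68 points, a divergent interval difference of 1.05 to 3.14 points and a listed neighbour difference of 2.53 to 3.57 points. The number of members could not be recomputed in this way because the set was thresholded on pooled signal. No paired analysis was possible because there is 1 group. Depth is unknown, no control was used, and with 3 replicates the sign-flip test cannot go below 0.25.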
